A study of Mus musculus with 4 samples.

Results

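Neuropeptides are short signalling peptides that neurons cut from larger precursor proteins, store in dense-core granules and release to act on G-protein-coupled receptors. In the adult retina several of them, among them somatostatin, substance P, neuropeptide Y and vasoactive intestinal peptide, are known from amacrine cells, and pituitary adenylate cyclase-activating peptide is known from light-sensitive ganglion cells. The 10 precursor genes Sst, Npy, Gal, Tac1, Cartpt, Penk, Pdyn, Adcyap1, Vip and Nts were read by their gene IDs from tables that list 25239 gene IDs in all. All 10 were present, each on 1 row.

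Poly(A) RNA of dissected mouse retina was sequenced at E13.5 (E, embryonic day) in 4 libraries, 2 from control retina and 2 labelled Isl1cKO, a conditional loss of the LIM-homeodomain factor Isl1. The series set out to describe how the retinal transcriptome changes without Isl1. The allele, the Cre driver, the genotype of the controls, the strain and the number of animals or retinas behind a library are not given in the sources used here. Nothing says that the libraries of a group came from separate litters, so p-values measure the spread between these libraries only, which may be technical.

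The level of Isl1 itself was not lower under the label Isl1cKO. It was 242 and 201 TPM (a level per transcript length with the same total in every library) in control replicates 1 and 2, against 321 and 223 TPM in those labelled Isl1cKO. Its log2 fold change was 0.28 (SE 0.21); limma gave an adjusted p-value of 0.683. The tables hold no value per exon, so a deletion that leaves a transcript cannot be seen, and every direction below rests on the labels. Aligned sequence ranged from 12.6 to 14.3 gigabases per library. The retinal progenitor factor Rax, named after its values were seen, was at 405 to 477 TPM. This gene alone does not settle the identity of the tissue. The markers of the hypothalamus, a peptide-rich neighbouring tissue, were 8 genes that did not exceed 0.133 TPM in any library.

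Of the 10 precursor genes, 5 exceeded 1 TPM, and these 5 did so in each of the 4 libraries. They were Gal, Sst, Penk, Adcyap1 and Tac1. The lowest value among them was 2.97 TPM, for Adcyap1 in replicate 2 labelled Isl1cKO. The highest value among the other 5 was 0.864 TPM, for Cartpt in control replicate 1. Only the 5 expressed genes passed the filter for testing, 1 TPM or more in 2 or more libraries.

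**Figure D1:**
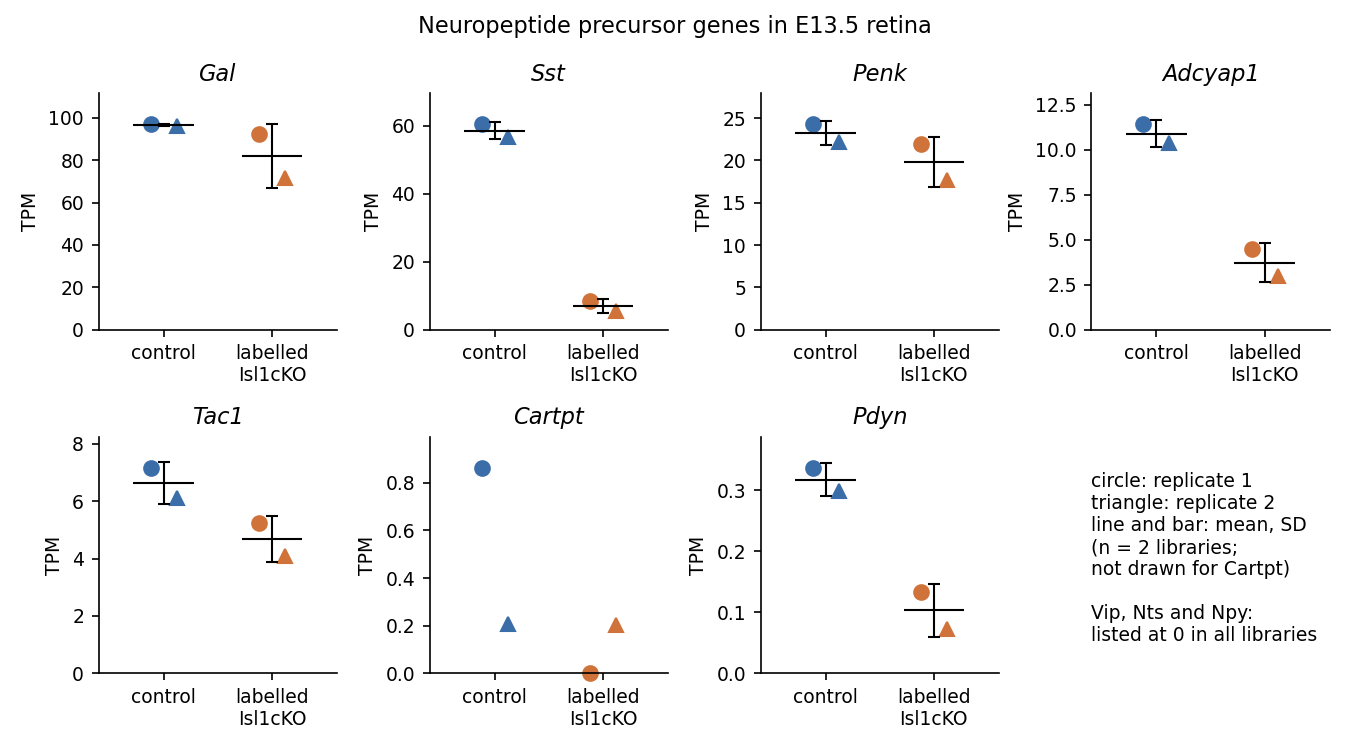
TPM (y axis, linear from 0, a scale of its own for each gene) of the 7 precursor genes with any value above 0, in control libraries (blue) and libraries labelled Isl1cKO (orange). Circles are replicate 1, triangles replicate 2, and lines with bars the mean and SD of 2 libraries (not drawn for Cartpt, listed at 0 in 1 library). Sst dropped from a mean of 58.7 to 7.02 TPM, while the means of Gal and Penk labelled Isl1cKO stayed within 1.18-fold of their control means.

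Sst was the precursor gene with the largest change. It encodes preprosomatostatin, the source of the somatostatin peptides, which inhibit hormone and transmitter release. The gene lies on chromosome 16 (23889581 to 23890844, minus strand, mm10). Its level was 60.5 and 56.8 TPM in control replicates 1 and 2, against 8.51 and 5.52 TPM in replicates 1 and 2 labelled Isl1cKO. Both control values thus lay far above both values labelled Isl1cKO. The 2 controls were close together, while the 2 values labelled Isl1cKO differed more relative to their mean. The means were 58.7 ± 2.59 and 7.02 ± 2.11 TPM (SD, n = 2 each), an 8.36-fold difference that left 11.96% of the control level.

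On the log2(TPM + 1) scale, where 1 is added before the logarithm and the change of low genes is understated, Sst fell by 2.92 (SE 0.20, 95% confidence interval -3.45 to -2.39). Its adjusted p-value in limma was 0.0221, with adjustment over all 13984 genes tested. Of these genes 0.493% were called at an adjusted p-value under 0.05, and 0.465% were called lower. Sst was the 1 called gene among the 5 tested precursor genes. The call was lost without control replicate 1 (adjusted p-value 0.162) and without control replicate 2 (0.141), where 3 libraries remain and the lone control is taken to vary like the other group. Adding 0.1 in place of 1 before the logarithm (adjusted p-value 0.0578) ended it too, as did the fit with no filter on low values (0.0963). The log2 fold change stayed between -3.19 and -2.64 in every alternative run.

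The upstream sequence of Sst is shown because it carries the gene's cAMP response element, the site bound by CREB-family factors. The windows below are the 250 bases before the RefSeq start (assembly GRCm38.p6) of Sst and, for comparison, of Adcyap1 and Gal, which had the next largest log2 fold change and the highest level. Capitals mark TGACGTCA, its shorter form TGACG and CTAATG, searched on both strands; a full TGACGTCA holds TGACG on each strand, and CTAATG holds the TAAT core that homeodomain proteins bind.
Sst (chr16:23890845-23891094, minus strand): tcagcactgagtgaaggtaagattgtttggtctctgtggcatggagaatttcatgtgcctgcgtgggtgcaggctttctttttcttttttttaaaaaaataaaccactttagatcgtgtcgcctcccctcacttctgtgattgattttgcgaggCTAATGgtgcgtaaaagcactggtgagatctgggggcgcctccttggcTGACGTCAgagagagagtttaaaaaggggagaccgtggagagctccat
Adcyap1 (chr17:93198767-93199016, plus strand): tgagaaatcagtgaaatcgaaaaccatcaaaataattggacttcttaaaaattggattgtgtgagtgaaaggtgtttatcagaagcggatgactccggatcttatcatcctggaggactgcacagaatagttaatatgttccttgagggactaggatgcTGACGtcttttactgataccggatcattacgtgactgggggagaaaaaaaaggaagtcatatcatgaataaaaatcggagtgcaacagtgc
Gal (chr19:3414545-3414794, minus strand): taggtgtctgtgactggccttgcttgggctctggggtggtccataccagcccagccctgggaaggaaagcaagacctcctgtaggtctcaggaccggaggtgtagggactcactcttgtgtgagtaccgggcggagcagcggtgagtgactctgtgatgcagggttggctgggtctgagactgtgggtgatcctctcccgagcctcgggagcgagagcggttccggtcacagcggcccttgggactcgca

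In the Sst window TGACGTCA lay 48 to 41 bases before the start and CTAATG lay 96 to 91 bases before it. The Adcyap1 window held TGACG 91 to 87 bases before the start, and the Gal window held none of these letters. Of 32851 promoter windows in the RefSeq table, 1.55% held TGACGTCA, 17.8% TGACG, 6.36% CTAATG and 54.9% TAAT in their 250 upstream bases. The table held 11 windows of 9 of the precursor genes, all but Penk. Besides Sst, Cartpt held TGACGTCA, and no precursor gene other than Sst held CTAATG. The shorter TGACG lay in 7 of the 11 windows, those of Sst, Adcyap1, Cartpt, Tac1, Nts and Vip, the last 2 of them listed at 0. The TAAT core was not particular to Sst: it lay in 7 of the 11 windows, also those of Adcyap1, Tac1, Pdyn, Nts and Vip. Adcyap1 had 2 overlapping windows, of which the 1 that begins at 93198767 is shown. The same TGACG and 1 same TAAT lie in both, so each count of 7 windows holds a shared site 2 times. These matches describe the letters of the windows and are not evidence of binding.

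Adcyap1 encodes the precursor of pituitary adenylate cyclase-activating peptide, which raises cAMP through its receptors. It lies on chromosome 17 (93199017 to 93206537, plus strand). Its level was 11.4 and 10.4 TPM in control replicates 1 and 2, and 4.49 and 2.97 TPM in replicates 1 and 2 labelled Isl1cKO. The groups did not overlap, and the mean in the libraries labelled Isl1cKO was 34.2% of the control mean. The log2 fold change of -1.35 (SE 0.18, 95% confidence interval -1.83 to -0.87) missed the threshold over all genes (adjusted p-value 0.101 in limma). With FPKM in place of TPM the value was -1.06 and the gene was called (adjusted p-value 0.0332).

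Tac1 encodes the precursor of substance P and neurokinin A and lies on chromosome 6 (7555061 to 7562978, plus strand). It was at 7.16 and 6.11 TPM in the controls, against 5.25 and 4.10 TPM in those labelled Isl1cKO. The groups did not overlap, but the gap between them was narrower than the difference between the 2 libraries of either group. The log2 fold change was -0.43 (SE 0.14, 95% confidence interval -0.81 to -0.06); limma gave an adjusted p-value of 0.359.

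Gal and Penk were expressed at a high and a moderate level and moved little. Gal encodes the precursor of galanin and lies on chromosome 19 (3409915 to 3414544, minus strand). It stood at 96.9 and 96.2 TPM in the controls, against 92.5 and 71.4 TPM in replicates 1 and 2 labelled Isl1cKO. Most of the difference between its group means came from the lower value of replicate 2 labelled Isl1cKO. The log2 fold change was -0.25 (SE 0.14, 95% confidence interval -0.63 to 0.14); limma gave an adjusted p-value of 0.592, and it was -0.06 without that library.

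Penk encodes proenkephalin, the source of the enkephalin opioid peptides, and lies on chromosome 4 (4133536 to 4138815, minus strand). It was at 24.3 and 22.2 TPM in the controls, against 21.9 and 17.7 TPM in those labelled Isl1cKO. Control replicate 2 and replicate 1 labelled Isl1cKO differed by less than the spread within either group. The log2 fold change was -0.23 (SE 0.13, 95% confidence interval -0.57 to 0.12); limma gave an adjusted p-value of 0.583. GENCODE M21 places a noncoding transcript on the opposite strand of Penk. Whether strand was used in assigning reads is not given in the sources used here, so reads of Penk and of that transcript may not have been told apart.

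**Figure D2:**
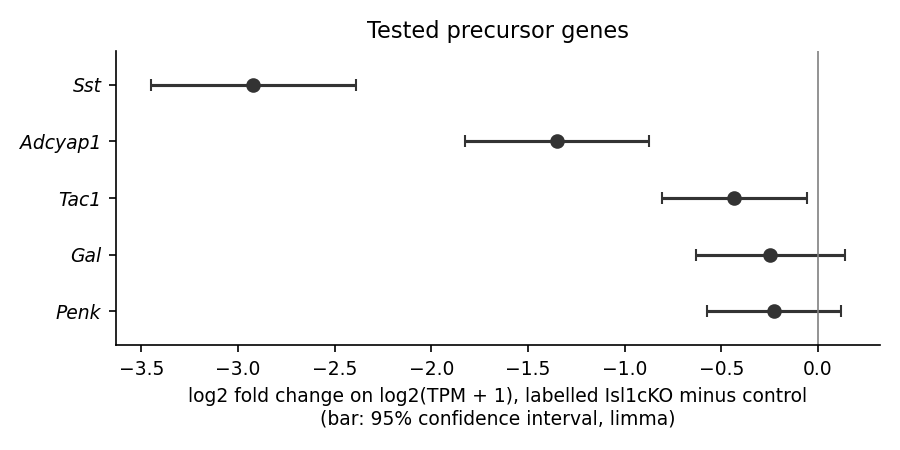
Log2 fold change on the log2(TPM + 1) scale (x axis, libraries labelled Isl1cKO minus control) of the 5 tested precursor genes, with bars for the 95% confidence interval from limma. The interval of Sst ends at -2.39, below the lower end of the Adcyap1 interval at -1.83, and the intervals of Gal and Penk include 0.

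In all 5 tested genes both values labelled Isl1cKO lay below both control values, as they did in 30.0% of all tested genes. At an unadjusted p-value under 0.05, 3 of the 5 (Sst, Adcyap1 and Tac1) stood below control, against 12.1% of all genes in either direction. The median log2 fold change of the 5 was -0.43, beside -0.05 over all genes tested. The 5 were tested because they are expressed, and they do not stand for the 10. The 10 were chosen with earlier results of these data known.

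The order of the precursor genes by level differed between the groups. In both controls it ran from Gal through Sst, Penk and Adcyap1 to Tac1. In both libraries labelled Isl1cKO it ran from Gal through Penk, Sst and Tac1 to Adcyap1. Sst thus moved from the second to the third place, and Adcyap1 from the fourth to the fifth. In the libraries labelled Isl1cKO the ranges of Tac1 (4.10 to 5.25 TPM) and Adcyap1 (2.97 to 4.49 TPM) overlapped. The last 2 places there thus rest only on the order within each of 2 libraries.

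TPM summed over the 10 genes was 201 and 192 in the controls and 133 and 102 in the libraries labelled Isl1cKO. Sst made up 30.0% and 29.6% of this sum in the controls, and 6.41% and 5.41% in the libraries labelled Isl1cKO. The share of Gal was 48.1% and 50.03% in the controls, and 69.7% and 70.01% in the libraries labelled Isl1cKO. The ratio of Sst to Gal within a library was 0.624 and 0.591 in the controls against 0.0920 and 0.0773. The ratio of Penk to Gal was 0.250 and 0.231 in the controls against 0.237 and 0.248, so the ranges of that ratio overlapped. The plot of shares by library shows this loss of the Sst portion.

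**Figure D3:**
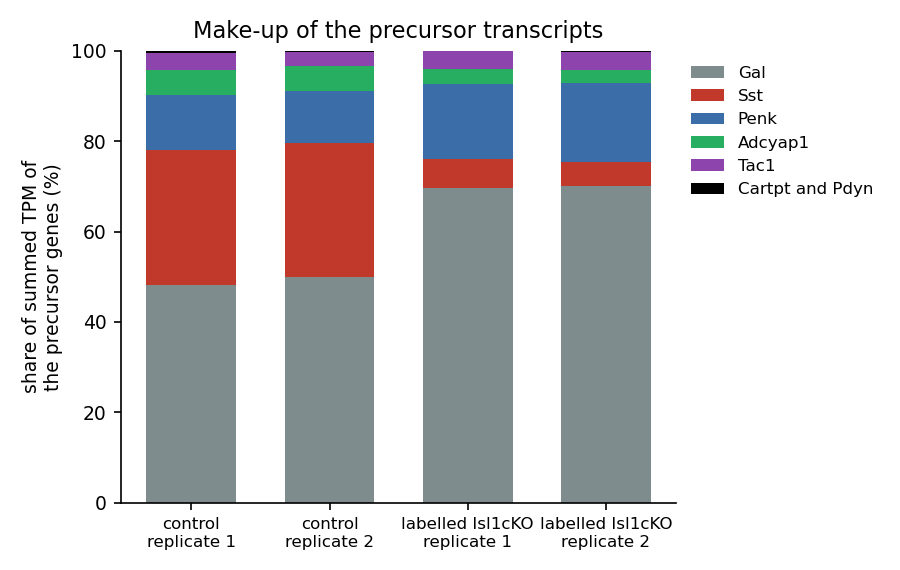
Share of each precursor gene in the TPM summed over the 10 genes (y axis, percent), by library. The Sst portion is 30.0% and 29.6% in the controls and 6.41% and 5.41% in the libraries labelled Isl1cKO.

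The other 5 precursor genes stayed below 1 TPM in each library. Pdyn, which encodes prodynorphin and lies on chromosome 2 (129686549 to 129699938, minus strand), was at 0.336 and 0.298 TPM in the controls, against 0.134 and 0.0724 TPM in those labelled Isl1cKO. The groups did not overlap, but the gene was too low for the filter and has no test here. Cartpt, which encodes the precursor of the CART peptides and lies on chromosome 13 (99898483 to 99900683, minus strand), was at 0.864 and 0.208 TPM in the controls. It was listed at 0 in replicate 1 labelled Isl1cKO and stood at 0.204 TPM in replicate 2, so its groups nearly met.

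Vip (chromosome 10, 5639218 to 5647616), Nts (chromosome 10, 102481756 to 102490418) and Npy (chromosome 6, 49822710 to 49829505) were listed at 0 in all 4 libraries. They encode the precursors of vasoactive intestinal peptide, neurotensin and neuropeptide Y. The tables give no read numbers, and no limit of detection is given for these genes.

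Other precursor genes were read from a list of 55, of which 15 passed the filter. None was called in limma, and 4 had an unadjusted p-value under 0.05. Their median log2 fold change was -0.07. The highest levels belonged to Nmb (neuromedin B), at 11.0 TPM in control and 8.82 TPM in the libraries labelled Isl1cKO, and to Pomc (the precursor of melanocortins and beta-endorphin), at 7.48 and 7.20 TPM. Npff, Gnrh1, Cck and Agrp followed, with control means from 2.76 to 5.81 TPM and log2 fold changes from -0.21 for Npff to 0.0018 for Gnrh1. Agrp changed sign under other scalings.

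The list's extremes lay in both directions. Pnoc, which encodes the precursor of nociceptin, was at 1.20 and 1.70 TPM in the controls, against 0.0412 and 0.0641 TPM in those labelled Isl1cKO. Its log2 fold change was -1.21 (adjusted p-value 0.0627 in limma), and the gene was called at a pseudocount of 0.1 (-3.33, adjusted p-value 0.0371). Grp, the gastrin-releasing peptide gene, was at 0.577 and 0.927 TPM in the controls, against 4.08 and 2.43 TPM in those labelled Isl1cKO. Its log2 fold change was 1.26 (adjusted p-value 0.167 in limma). Edn1, the endothelin-1 gene, had a log2 fold change of 0.58 (adjusted p-value 0.227 in limma).

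The list of 25 receptor genes held none for the CART peptides. Of the 25, 5 passed the filter and none was called in limma, with 2 at an unadjusted p-value under 0.05. Their median log2 fold change was -0.06. Sstr2, a somatostatin receptor, was at 19.7 and 18.2 TPM in the controls, against 23.0 and 23.2 TPM in those labelled Isl1cKO. Its groups did not overlap, and its log2 fold change was 0.27 (adjusted p-value 0.342 in limma). No other somatostatin receptor gene reached 1 TPM.

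Adcyap1r1, the receptor selective for the Adcyap1 peptide, had a mean of 6.24 TPM in control and 7.28 TPM in the libraries labelled Isl1cKO. Vipr2, which binds that peptide and vasoactive intestinal peptide, stood at 11.1 and 9.31 TPM. Their log2 fold changes were 0.19 and -0.23, with adjusted p-values of 0.563 and 0.370 in limma. The galanin receptor gene Galr2 was near 2.03 TPM in control and 1.88 TPM in the libraries labelled Isl1cKO. Sort1, which encodes sortilin, a sorting receptor that binds neurotensin, was the most abundant at 76.5 and 71.7 TPM, although Nts itself was listed at 0.

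The genes for precursor processing and dense-core granules were lower in most cases without passing over all genes. Of 19 genes 18 were tested, 16 had a negative log2 fold change and 0 were called in limma, with 11 at an unadjusted p-value under 0.05. Their median log2 fold change was -0.60. Over all 13984 genes tested, 8916 had a negative value and 5068 a positive one, and 12.1% had an unadjusted p-value under 0.05 in limma. This list, too, was chosen with earlier results of these data known. Cpe, the carboxypeptidase that trims peptide ends, and Pam, which amidates them, had log2 fold changes of -0.12 and -0.0013 (positive under other scalings), at control means of 192 and 55.0 TPM. Scg5, a chaperone of the convertase encoded by Pcsk2, had -0.18.

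Several other genes of this list held larger differences. The convertase gene Pcsk2 had -0.67 (adjusted p-value 0.0824 in limma, the lowest of the list), and Pcsk1n, which encodes proSAAS, had -0.79 (0.183). Scg3, a granin, was at 89.9 and 76.5 TPM in the controls, against 53.7 and 45.0 TPM in those labelled Isl1cKO, a log2 fold change of -0.74 (adjusted p-value 0.173 in limma). Resp18 had -1.16, Vgf -0.87, Ptprn -0.80 and Cadps -0.66, with adjusted p-values from 0.106 to 0.287. The 2 positive values of the list belonged to Ptprn2, a paralog of Ptprn, at 0.25 (adjusted p-value 0.498) and Cadps2, a paralog of Cadps, at 0.17 (0.494).

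Among 8 genes for peptide-degrading enzymes, 7 were tested and 0 were called in limma, with 1 at an unadjusted p-value under 0.05. Their median log2 fold change was -0.23. That gene was Mme, which encodes neprilysin and had a log2 fold change of -0.49 (adjusted p-value 0.242). Ece2 had -0.33, Ece1 -0.24, Nln -0.23, Ide -0.19, Prep -0.06 and Thop1 0.05.

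**Figure D4:**
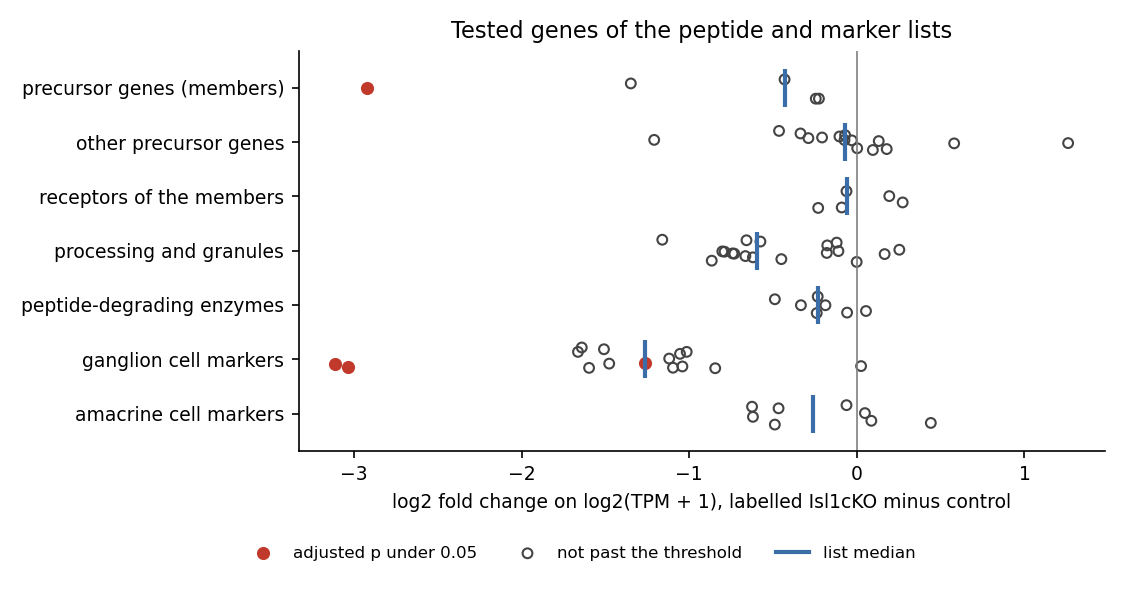
Log2 fold change on the log2(TPM + 1) scale (x axis, libraries labelled Isl1cKO minus control) of each tested gene, by list. Filled points passed an adjusted p-value under 0.05 in limma, open points did not, and blue bars are list medians. Sst lies apart at -2.92 among the precursor genes, next to Irx3 and Nell2 of the ganglion cell markers at -3.11 and -3.03. The lens and other marker lists are not drawn. Of the lens genes, Cryba4 at -2.87 was closer to Sst than Irx3 and Nell2 were, and Crygb stood at -3.38.

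The marker lists of other cell types did not all point one way. Their counts of negative values stand beside 8916 negative values among all 13984 genes tested. Of 16 ganglion cell markers 15 were tested and 14 had a negative log2 fold change, with a median of -1.26. In limma 14 had an unadjusted p-value under 0.05, against 12.1% of all genes tested in either direction. For 14 of the 15 both values labelled Isl1cKO lay below both control values, as in 30.0% of all tested genes. The marker lists were chosen with earlier results of these data known, so these counts describe the lists and are not independent support. Called lower were 3 markers (Irx2, Irx3 and Nell2). Leaving out 1 library at a time took the adjusted p-value of Irx2 to between 0.0576 and 0.274, that of Nell2 to between 0.0576 and 0.106, and that of Irx3 to as much as 0.0756. Their summed level was 3343 to 3915 TPM in the controls and 1348 to 1951 TPM in the libraries labelled Isl1cKO. The ganglion cell factor Pou4f2, named after its values were seen, was at 125 and 127 TPM on average. In bulk RNA fewer cells of a type and less RNA per cell cannot be told apart. The part of these markers in the Sst result was not tested.

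Amacrine cell markers, 8 of 10 tested, had 5 negative and 3 positive log2 fold changes and a median of -0.26. None was called in limma, and 3 had an unadjusted p-value under 0.05. Their summed level was 71.4 to 87.9 TPM in the controls and 61.0 to 78.8 TPM in the libraries labelled Isl1cKO, so the sums overlapped. Taken singly, 4 of the 8 had both values labelled Isl1cKO below both control values, beside 30.0% of all tested genes. For 1 of the 8 both lay above. Lens markers summed to 199 to 241 TPM in the controls and 8.13 to 12.3 TPM in the libraries labelled Isl1cKO, and 6 of 11 (Cryaa, Cryba1, Cryba4, Crybb3, Cryga and Crygb) were called lower. Leaving out a control ended the call of Cryaa (adjusted p-values 0.153 and 0.145 without replicates 1 and 2), leaving out control replicate 1 that of Cryba4 (0.0529), and leaving out replicate 2 labelled Isl1cKO that of Cryba1 (0.0734). Red blood cell markers summed to 2903 to 4168 TPM and 204 to 1418 TPM. Sst was as low when crystallin and haemoglobin genes were left out and TPM rescaled (log2 fold change -2.93, adjusted p-value 0.0279 in limma). This step removes a small part of the total and changes the scale only. Whether lens or blood tissue in the samples bears on the Sst values was not tested.

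No marker of the lists that follow was called in limma. Horizontal cell markers had 3 positive log2 fold changes among 4 tested (median 0.18), and microglia markers had 8 among 8 (median 0.33, from 0.19 to 0.76), with 1 and 4 genes at an unadjusted p-value under 0.05. Progenitor markers were split, with 6 negative and 6 positive values and a median of 0.04. Photoreceptor precursor markers had 6 negative values among 6 tested (median -0.48), and red blood cell markers 8 among 8 (median -2.52). Of the few tested markers of pigment epithelium, periocular mesenchyme and endothelium, 5 of 6, 3 of 3 and 2 of 3 had negative values.

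The genes whose levels over the 4 libraries were most like those of Sst were Ret, Cryba4 and Nell2, by Euclidean distance of the centred log2(TPM + 1) values (0.284, 0.317 and 0.336). Ret, a receptor tyrosine kinase for ligands of the GDNF family, was at 30.8 and 24.0 TPM in the controls, against 3.53 and 2.68 TPM in those labelled Isl1cKO. Cryba4 is a lens crystallin gene, and Nell2 encodes a secreted glycoprotein. With 4 libraries in 2 groups this likeness mainly records a similar difference between the groups.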

How the data were processed

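Per the labels' protocols, dissected E13.5 retinae were frozen, poly(A) RNA was selected and the library kit kept strand. The submitters' processing notes name HISAT2, StringTie, SAMtools, Trimmomatic, FastQC and DESeq2 and the build mm10; versions, annotation and strand setting are not given in the sources used here. Per the file headers, the deposited tables give mean coverage per base (a signal not scaled to depth, used only to derive gigabases as the ratio of coverage to FPKM), FPKM and TPM. The deposited FPKM entered alternatives only. The deposited TPM sums to 1000000 per library. Repeated rows of a gene were summed.

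Genes with at least 1 TPM in at least 2 libraries were tested with limma 3.58.1 in R 4.3.3 (lmFit and eBayes on log2(TPM + 1), genotype as the only term, two-sided, Benjamini-Hochberg adjustment over all tested genes, threshold 0.05). The fit was tested on simulated data. The members and lists were chosen with earlier results of these data known. Genes named outside the members are, per peptide list, up to 6 with the highest mean TPM and 3 with the largest change, called genes of the marker lists, and the 3 genes nearest to the member that changed most. Further names were chosen after values were seen: Isl1 aside, these are Pou4f2, Rax, Pcsk2, Pcsk1n and Cadps2. Some results, the only called gene of 1 further marker list and that list's sum among them, are not reported here. Alternatives were another pseudocount, other filters, FPKM, other scalings, a mean-variance trend, a replicate block, removal of crystallin and haemoglobin genes, and each library left out. Promoter windows and positions of motifs come from RefSeq (GRCm38.p6, the same assembly as mm10); overlapping genes come from GENCODE M21.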

Additional observations from a re-analysis of the deposited data

How the results depend on the processing

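The number of precursor genes above 1 TPM in at least 1 library, 5, was 5 in the other alternatives, also in all 4 libraries, and 6 at a threshold of 0.5 TPM. Counted within a library, 5 or 6 genes exceeded 0.5 TPM, and 5 TPM was exceeded by 5 genes in each control and by 4 and 3 in replicates 1 and 2 labelled Isl1cKO. The number called, 1 (Sst), was 0 at a pseudocount of 0.1 and 0 with no filter on low values, and ranged from 0 to 1 when each library was left out in turn. It was 2 with FPKM in place of TPM (Sst and Adcyap1). The number of all genes called, 69 (4 higher and 65 lower), was 44 at a pseudocount of 0.1 and 15 with no filter. It was 127 with FPKM, 110 with a mean-variance trend, 45 without crystallin and haemoglobin genes, and from 10 to 37 with 1 library left out. A higher minimum of 5 TPM, median-ratio scaling and upper-quartile scaling kept it within 1.5 times. A similar count did not always mean the same genes. Of the 71 genes called at the 5 TPM minimum, which leaves lower genes untested, 47 were among the 69. FPKM shared 62 genes with the 69, the mean-variance trend 61, and each of the 2 scalings 69.

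The replicate numbers are not said to mark litters or days, and deviations of same-numbered libraries correlated at 0.126 across genes, so they were taken as numbers only. With the replicate block 265 genes were called and 2 precursor genes, Sst and Adcyap1 (adjusted p-value 0.0193 in limma for Adcyap1). Resp18 (0.0170), Pnoc (0.0197), Vgf (0.0310), Pcsk1n (0.0426) and Scg3 (0.0444) were called with it too.

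The 5 tested precursor genes kept their direction in each alternative. Of the 52 named genes, 10 changed sign in some alternative, none of them called. Agrp (-0.03) was 0.0027 with FPKM, 0.0112 with median-ratio and 0.0135 with upper-quartile scaling, and Pam (-0.0013) was 0.0467, 0.0541 and 0.0572. Gnrh1 (0.0018) was -0.0019 without crystallin and haemoglobin genes. With 1 library left out the values ran from -0.21 to 0.14 for Agrp, -0.19 to 0.043 for Cck, -0.29 to 0.17 for Galr2, -0.15 to 0.16 for Gnrh1 and -0.46 to 0.082 for Ide. They ran from -0.032 to 0.029 for Pam, -0.32 to 0.18 for Pomc, -0.0629 to 0.113 for Pou4f2, -0.15 to 0.032 for Prep and -0.028 to 0.14 for Thop1. The cause of these changes was not tested. Depth in reads is unknown, and values under 1 TPM rest on little sequence.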
